A study of Arabidopsis thaliana with 48 samples.

Results

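The comparison described here set Arabidopsis thaliana plants that had carried two-spotted spider mites (Tetranychus urticae) for 7 d against plants of the same age that had carried none. Its members were all libraries labelled with that harvest, 4 of infested plants and 4 of control plants, which made 8 of the 48 libraries of the series, and every gene of the table was described over them. All plants were of the accession Columbia (Col-0), carried no transgene or mutation in the labels, and were 3 weeks old when 20 adult female mites were put on each plant of the infested group. Control plants grew beside them without mites, and a cylinder around every plant kept the mites in place. Each library was 1 biological replicate made from the pooled aerial parts of 4 plants. A pool of whole shoots mixes bitten and unbitten tissue and all cell types, so fewer cells of a type and less RNA per cell cannot be told apart.

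Spider mites pierce single leaf cells with their stylets and empty them. Plants answer chewing and cell-sucking animals mainly through jasmonic acid (JA), an oxidised fatty acid made in chloroplasts and peroxisomes, whose isoleucine conjugate removes the JAZ repressors from transcription factors and so turns on defence proteins, leaf volatiles and indole glucosinolates. Salicylic acid (SA) and pipecolic acid carry the response to many pathogens, abscisic acid (ABA) the response to drought, and growth hormones and light harvesting are known to yield when defences are switched on.

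The 8 libraries held between 17.6 and 23.4 M counts (M for mega). Expression is given as CPM (counts relative to the library total, per M) after TMM scaling, which does not correct for gene length, so levels are compared between libraries and not between genes. The 4 infested libraries lay close together, at -38.4 to -31.6 on the first principal component of the 8 libraries (42.1% of the variance), and the controls lay at 25.4 to 44.9. On the second component (15.9%) the controls split: replicates 2 and 3 lay at -26.6 and -19.8, replicates 1 and 4 at 46.1 and 13. In 170 of 22252 genes both control replicates 2 and 3 exceeded both 1 and 4 by at least 2-fold, and in 52 genes they lay at least 2-fold below. The labels name no batch that separates those controls. Results that rest on either pair are therefore given also without control replicates 2 and 3, and without control replicates 1 and 4, alternatives chosen after seeing the data. With 2 controls left, a gene can miss the threshold at an estimate of similar size. The map of gene lists by library shows which lists follow the split.

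**Figure D1:**
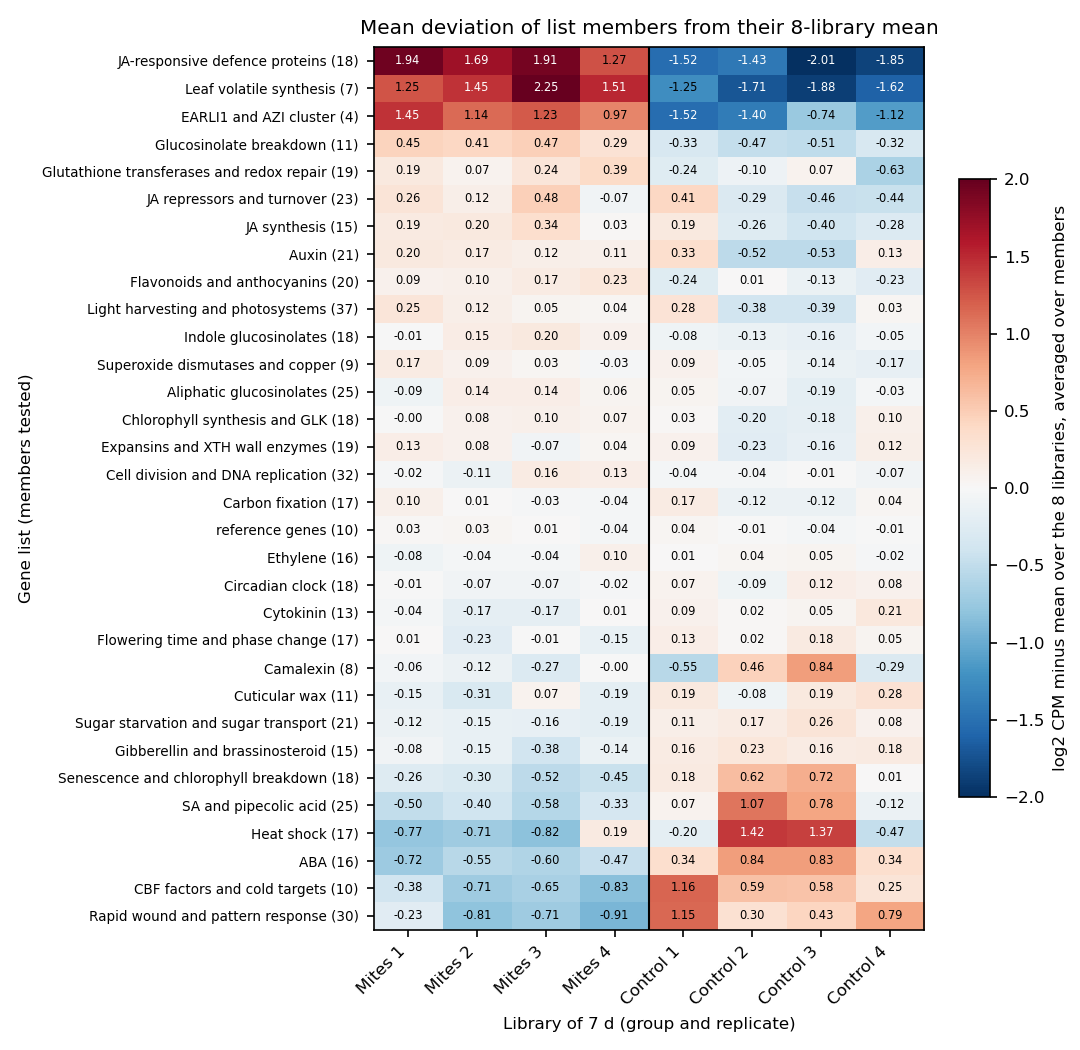
Mean deviation of log2 CPM of each list's members (rows, with the number of members tested) from their own mean over the 8 libraries, in each infested library (left 4 columns) and each control library (right 4 columns). JA-responsive defence proteins stood between 1.27 and 1.94 in the infested libraries and between -2.01 and -1.43 in the controls, whereas the heat shock list stood at 1.42 and 1.37 in control replicates 2 and 3 and at -0.20 and -0.47 in replicates 1 and 4.

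Infestation for 7 d moved more genes down than up. Of 22252 genes tested, 1371 were higher in infested plants (6.16%) and 1688 were lower (7.59%) at an adjusted p under 0.05, by edgeR's quasi-likelihood test over all 48 libraries with Benjamini-Hochberg adjustment. Counts of list members given below are to be read against these shares of all genes. The median log2 fold change of all genes was 0.00647. Of these calls, 286 rose at least 2-fold (1.29%) and 521 fell at least 2-fold (2.34%), so the larger changes lay mostly on the falling side. Scaling by library totals alone, without TMM, gave 955 higher and 2138 lower genes, which lowered the share of rises among calls to 30.9% and shifted the median of all genes to -0.0387. Without control replicates 2 and 3 there were 374 rises and 809 falls, and without control replicates 1 and 4 there were 1763 and 2042. Leaving out 1 library at a time gave 808 to 1858 rises and 1189 to 2018 falls, lowest without control replicate 2 and highest without control replicate 1.

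**Figure D2:**
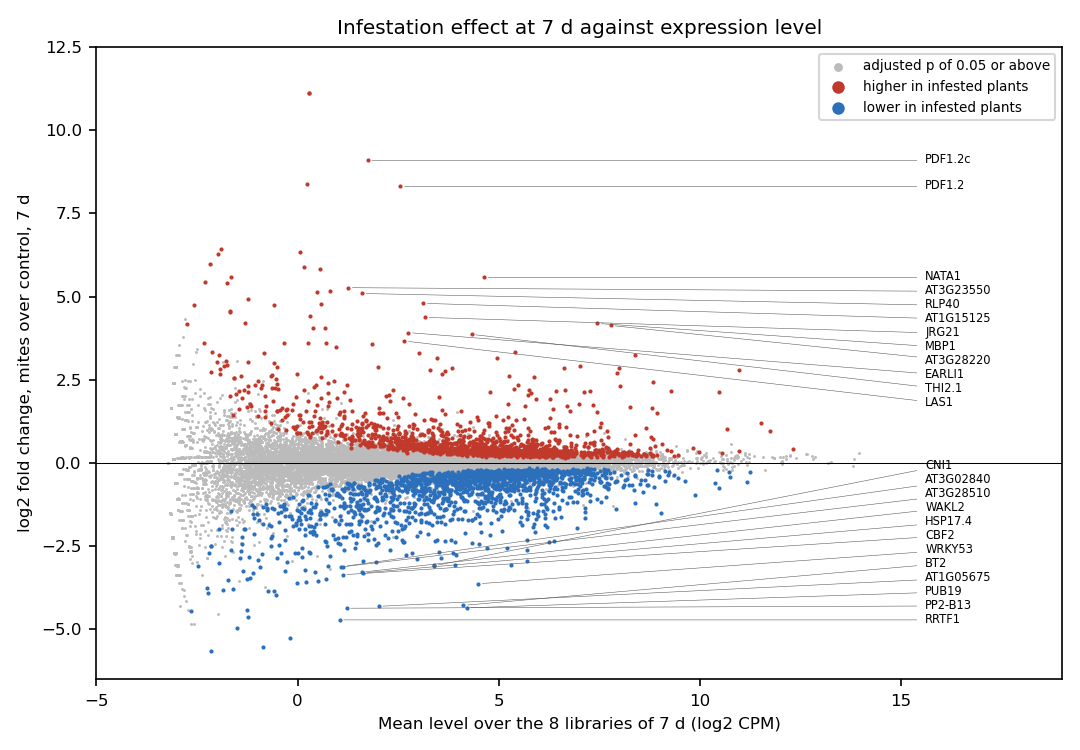
Log2 fold change (mites over control at 7 d) against the mean level over the 8 libraries in log2 CPM, 1 point per gene tested; red points were higher and blue points lower in infested plants. The named points are the 12 largest rises and the 12 largest falls among called genes with a mean of at least 1 log2 CPM, with defensin genes at the top and RRTF1 at the bottom.

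**Figure D3:**
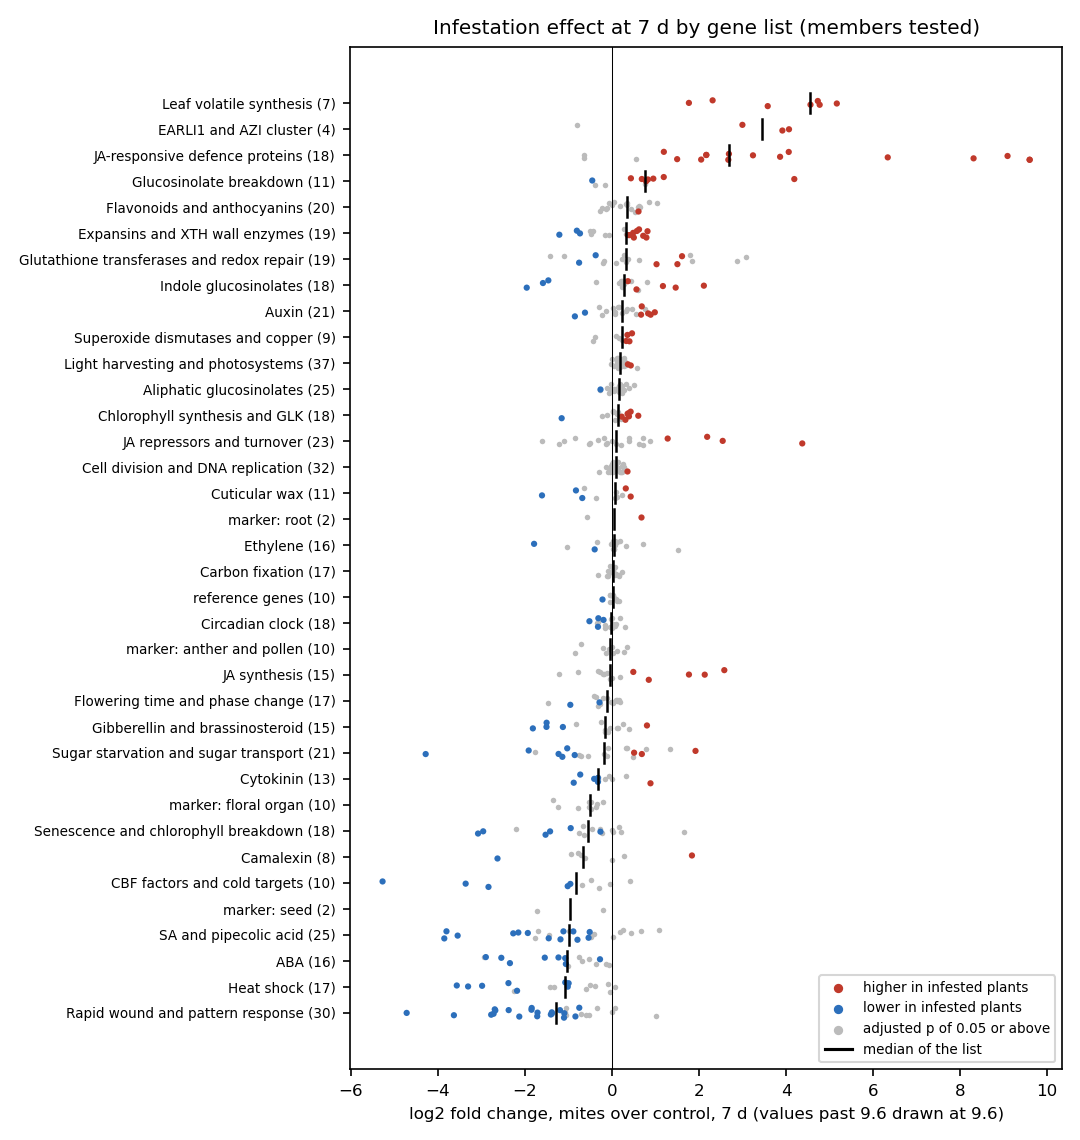
Log2 fold change (mites over control at 7 d) of every tested member of each gene list, with the number of members tested after its name, called members in red (higher) or blue (lower), other members in grey and the median as a black bar. Medians reached 4.56 for leaf volatile synthesis and 2.68 for JA-responsive defence proteins at the top, and -1.29 for rapid wound and pattern response at the bottom.

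Proteins that JA switches on in attacked leaves rose together. Of 18 tested members of the JA-responsive list, 15 were higher and 0 lower in infested plants, with a median log2 fold change of 2.68, and the same 15 had every infested library above every control library, against 7.4% of all genes. Without control replicates 2 and 3, 11 were still called higher, and without replicates 1 and 4, 14 were. The plant defensins, small cysteine-rich proteins that JA and ethylene induce jointly, had the largest folds. PDF1.2 (AT5G44420) stood at 160, 123, 105 and 49.9 CPM in the 4 infested libraries, against 0.184, 0.856, 0 and 0.353 CPM in the controls (log2 fold change 8.31 ± 1.04 (SE), adjusted p = 3.83e-07). Its neighbour PDF1.2c (AT5G44430) had 93.2, 72.1, 63.3 and 31.2 CPM against 0, 0.352, 0 and 0.118 CPM (9.09 ± 1.15, adjusted p = 4.16e-07). Both genes were low in all 4 controls, and infested replicate 4 was the lowest of its group for both. PDF1.2b (AT2G26020) had 1046 counts over the infested libraries and 0 over the controls, at least 397-fold higher against a floor of 3 counts over the group, and PDF1.3 (AT2G26010) had 1039 and 0, at least 394-fold higher. The defensin copies are nearly identical in sequence, and how reads that match several of them were counted is not given in the sources used here, so the split between copies is uncertain. PDF1.4 (AT1G19610), the most diverged copy, rose too, to 9.67, 6.87, 6.37 and 3.59 CPM in infested plants, against 0.0460, 0.0503, 0 and 0.236 CPM in controls (6.34 ± 0.53, adjusted p = 1.78e-11). ORA59 (AT1G06160), the AP2/ERF factor that joins JA and ethylene signals at the defensin genes, had 5.30, 4.39, 5.58 and 4.37 CPM against 0.276, 0.604, 0.0460 and 0.236 CPM (4.06 ± 0.55, adjusted p = 8.20e-07). ERF1 (AT3G23240), another factor of that branch, did not pass (-0.65 ± 0.57, adjusted p = 0.532).

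Most other members of this list, defence and storage proteins and enzymes of amino acid breakdown among them, rose as well. THI2.1 (AT1G72260), a thionin toxic to microbes, stood at 80.3, 53.7, 131 and 59.4 CPM in infested plants, against 8.82, 5.59, 4.46 and 3.18 CPM in controls (3.86 ± 0.45, adjusted p = 9.11e-08). VSP1 (AT5G24780), a vegetative storage protein, had 902, 840, 1422 and 1029 CPM against 133, 111, 98.7 and 101 CPM (3.24 ± 0.67, adjusted p = 0.000757). No control library of either gene came near the infested ones. Its relative VSP2 (AT5G24770) rose to 1274, 1334, 1621 and 1081 CPM, against 385, 294, 229 and 274 CPM in controls (2.17 ± 0.48, adjusted p = 0.00165). The chlorophyllase CLH1 (AT1G19670) rose by 2.69 ± 0.43 on the log2 scale (adjusted p = 2.23e-05), the trypsin inhibitor TI1 (AT2G43510) by 2.67 ± 0.40 (7.04e-06), and the chitin-binding protein PR4 (AT3G04720) by 2.05 ± 0.35 (6.41e-05). Arginase 2, ARGAH2 (AT4G08870), an enzyme that breaks down an essential amino acid of the diet, had 756, 838, 994 and 712 CPM against 304, 366, 245 and 254 CPM (1.5 ± 0.37, adjusted p = 0.00457). The cystine lyase CORI3 (AT4G23600) rose by 2.17 ± 0.66 (adjusted p = 0.0222) and the basic chitinase HCHIB (AT3G12500) by 1.19 ± 0.26 (0.00119). Without control replicates 2 and 3, VSP2, CORI3, ARGAH2 and HCHIB missed the threshold (adjusted p = 0.062, 0.12, 0.055 and 0.089) with estimates of 2.01, 2.45, 1.56 and 0.94. The call of CORI3 also ended when control replicate 3 (0.07) or 4 (0.057), or infested replicate 3 (0.055), was left out. It ended without control replicates 1 and 4 as well (0.13, with an estimate of 1.93). Neither of the remaining members passed, the tyrosine aminotransferase TAT3 (AT2G24850; 0.54 ± 0.85, adjusted p = 0.76) and the protease inhibitor KTI1 (AT1G73260; -0.64 ± 0.53, 0.494).

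**Figure D4:**
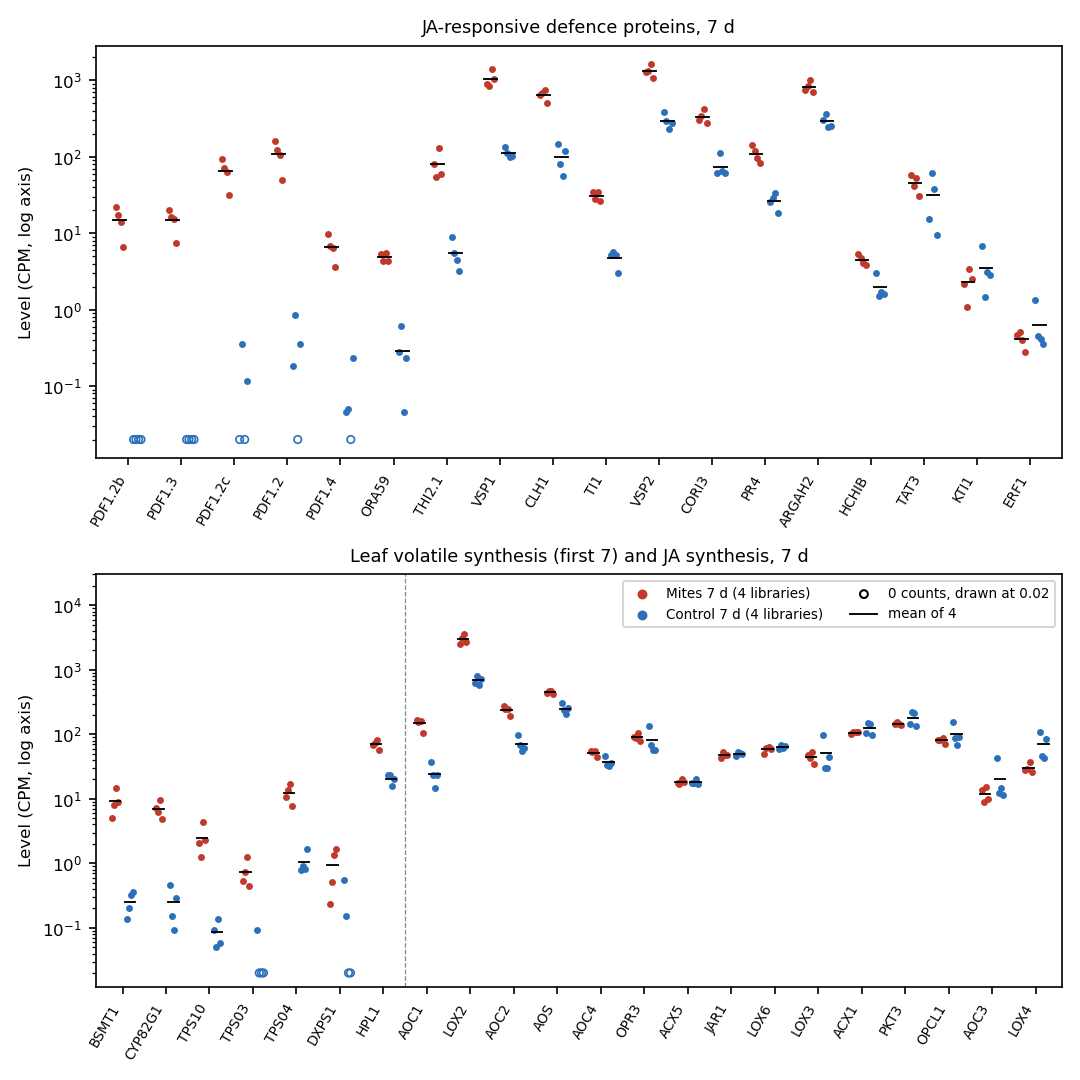
Level in CPM (log axis) of the tested JA-responsive defence proteins (top), and of leaf volatile and JA synthesis genes (bottom, separated by the dashed line), in each of 4 infested (red) and 4 control (blue) libraries; black bars are means of 4 and open circles are libraries with 0 counts, drawn at 0.02. From PDF1.2b to HCHIB the red points lie above all blue ones, whereas LOX3, OPR3 and AOC3 have 1 control library above every infested library.

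In JA synthesis 5 of 15 tested genes were higher and 0 lower, with a median of -0.05. The risers were LOX2, AOS and 3 allene oxide cyclases, enzymes of the plastid steps, whereas the plastid lipoxygenases LOX3 and LOX4 and the cyclase AOC3 did not pass. LOX2 (AT3G45140), the lipoxygenase that starts most wound JA in leaves, had 2535, 3137, 3603 and 2732 CPM in infested plants, against 629, 802, 590 and 721 CPM in controls (2.13 ± 0.41, adjusted p = 0.000318). The allene oxide cyclases AOC1 (AT3G25760) and AOC2 (AT3G25770), which set the ring of the hormone, rose by 2.58 ± 0.57 (adjusted p = 0.00137) and 1.77 ± 0.42 (0.0033). AOC1 stood at 167, 157, 162 and 103 CPM against 36.7, 23.2, 14.9 and 23.6 CPM, with no overlap of the groups; AOC1, AOC2 and AOC3 are near-identical tandem copies, so the split between them is uncertain. AOC4 (AT1G13280) and the allene oxide synthase AOS (AT5G42650) rose less (0.49 ± 0.12, adjusted p = 0.00499, and 0.84 ± 0.27, 0.0338). Without control replicates 2 and 3 only LOX2 was still called: AOC1, AOC2, AOC4 and AOS had adjusted p of 0.068, 0.094, 0.25 and 0.35. The call of AOS ended in 9 of 16 alternatives run, among them the omission of infested replicate 1, 2 or 3 (0.056, 0.068 and 0.074) or control replicate 2, 3 or 4 (0.093, 0.12 and 0.056). Among genes that wounding induces within minutes to hours, control replicate 1 was high. OPR3 (AT2G06050), the reductase of the peroxisomal steps, had 89.3, 88.8, 105 and 78.7 CPM in infested plants, against 136, 69.1, 57.6 and 58.0 CPM in controls (0.17 ± 0.40, adjusted p = 0.851). The lipoxygenase LOX3 (AT1G17420) had 48, 42.3, 53.9 and 35.2 CPM against 98.0, 30.31, 30.37 and 43.8 CPM (-0.18 ± 0.47, adjusted p = 0.878). In both genes the infested values sat below control replicate 1 and near or above the other controls. LOX4 (AT1G72520) was below every control in all infested libraries, at 28.3, 28.8, 37.8 and 26.4 CPM against 110, 46.4, 42.1 and 85.4 CPM, and did not pass (-1.23 ± 0.48, adjusted p = 0.0895).

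Of 23 tested genes that restrain or remove JA, 4 were higher and 0 lower, against 6.16% and 7.59% of all genes. The risers were 3 oxygenases and an amidohydrolase. JRG21 (AT3G55970), a 2-oxoglutarate-dependent oxygenase of the family that hydroxylates JA to an inactive form, had 39.7, 41.9, 52.7 and 32.6 CPM in infested plants, against 3.03, 2.01, 0.874 and 2.12 CPM in controls (4.37 ± 0.82, adjusted p = 0.000189). AT5G05600, of the same family, had 127, 116, 129 and 92.5 CPM against 31.8, 31.0, 17.2 and 22.0 CPM (2.19 ± 0.61, adjusted p = 0.0128). The third oxygenase, AT3G11180, was near the detection limit, at 0.466, 0.281, 1.31 and 0.387 CPM against 0.0460, 0, 0.276 and 0.0589 CPM (2.54 ± 0.71, adjusted p = 0.0114). ILL6 (AT1G44350), which cleaves the isoleucine conjugate, rose by 1.28 ± 0.34 (adjusted p = 0.00844). Without control replicates 2 and 3, JRG21 and AT3G11180 were still called; AT5G05600 ended there and without control replicate 3 (adjusted p = 0.15 and 0.054), ILL6 ended there (0.15), and AT3G11180 ended without control replicate 2 or infested replicate 3 (0.054 and 0.12). Without control replicates 1 and 4, AT5G05600 and AT3G11180 also missed the threshold (adjusted p = 0.055 and 0.097). No JAZ repressor passed. JAZ10 (AT5G13220) had 20.9, 18.2, 27.9 and 18.1 CPM in infested plants, against 44.0, 17.3, 16.0 and 14.2 CPM in controls (-0.11 ± 0.55, adjusted p = 0.945). JAZ1 (AT1G19180) had 38.5, 27.4, 32.8 and 24.5 CPM against 104, 22.9, 20.1 and 25.9 CPM (-0.50 ± 0.53, adjusted p = 0.622). Control replicate 1 was the highest of the 8 libraries for both, and the other controls lay below the infested libraries for JAZ10 and below or within their range for JAZ1. The catabolic oxidases CYP94B1 (AT5G63450) and CYP94C1 (AT2G27690) were lower in every infested library than in every control without passing (-1.61 ± 0.74, adjusted p = 0.158, and -0.53 ± 0.43, 0.493).

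All 7 tested genes of leaf volatile synthesis were higher, against 6.16% of all genes, with a median of 4.56. In 6 of them every infested library lay above every control library, against 7.4% of all genes. BSMT1 (AT3G11480), which makes methyl salicylate, a volatile that predators of mites follow, had 5.07, 7.88, 14.7 and 9.07 CPM in infested plants, against 0.138, 0.201, 0.322 and 0.353 CPM in controls (5.17 ± 1.13, adjusted p = 0.00138). CYP82G1 (AT3G25180), the last enzyme of the homoterpene TMTT, had 7.23, 6.30, 9.50 and 4.92 CPM against 0.460, 0.151, 0.0920 and 0.295 CPM (4.77 ± 0.63, adjusted p = 8.42e-07). The terpene synthase TPS10 at AT2G24210, a maker of linalool and myrcene, had 2.098, 1.24, 4.32 and 2.27 CPM against 0.0919, 0.0503, 0.138 and 0.0589 CPM (4.73 ± 1.14, adjusted p = 0.0035). All of these genes were close to 0 in control plants. For TPS03 (AT4G16740), which forms ocimene, the infested libraries summed to 52 counts and the controls to 2, a ratio of 29.6 with a 95% counting interval of 7.79 to 251 (adjusted p = 0.00842). HPL1 (AT4G15440), a gene of the green leaf volatile pathway, had 69.2, 73.6, 80.4 and 57.5 CPM against 23.3, 23.2, 16.0 and 20.03 CPM (1.77 ± 0.38, adjusted p = 0.000957). These are RNA levels, which do not show enzyme activity or volatile output. TPS04 (AT1G61120), which makes the precursor of TMTT, rose by 3.58 ± 1.18 (adjusted p = 0.0367) and the terpenoid precursor enzyme DXPS1 (AT3G21500) by 2.31 ± 0.79 (0.0437). Without control replicates 2 and 3 the calls of BSMT1, CYP82G1 and HPL1 held, while TPS10, TPS03, TPS04 and DXPS1 had adjusted p of 0.069, 0.16, 0.27 and 0.4. TPS04 also missed the threshold without control replicates 1 and 4 (0.11). TPS04 and DXPS1 were the weakest calls: leaving out single libraries of 7 d ended that of TPS04 in most cases (highest adjusted p 0.1 without control replicate 3), and that of DXPS1 without control replicates 2, 3 or 4 (0.11, 0.15 and 0.11) or infested replicates 3 or 4 (0.13 and 0.17).

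Glucosinolates are stored apart from the myrosinases that turn them into mustard oils when a cell is broken. In the breakdown list, of myrosinases and the proteins that bind them or steer their products, 7 of 11 genes were higher and 1 lower, with a median of 0.77, against 6.16% higher and 7.59% lower of all genes; the counts were 5 higher without control replicates 2 and 3 and 8 without replicates 1 and 4. MBP1 (AT1G52040), a myrosinase-binding protein, had 691, 762, 929 and 643 CPM in infested plants, against 44.2, 47.2, 28.0 and 46.5 CPM in controls (4.19 ± 0.61, adjusted p = 5.21e-06). The myrosinases themselves, TGG1 (AT5G26000) and TGG2 (AT5G25980), which release the toxic aglycone, rose by less. TGG2 had 4538, 4425, 4477 and 4477 CPM against 2473, 1836, 1415 and 2133 CPM (1.19 ± 0.13, adjusted p = 4.85e-09), and TGG1 rose by 0.95 ± 0.12 (2.3e-07). The infested libraries hardly varied among themselves for TGG2, and every control lay well below. ESP (AT1G54040) and NSP1 (AT3G16400), specifier proteins that turn the aglycone towards nitriles, rose by 0.68 ± 0.12 (adjusted p = 4.75e-05) and 0.78 ± 0.22 (0.012, and 0.14 without control replicates 2 and 3), and the myrosinase-associated MVP1 (AT1G54030) by 0.83 ± 0.14 (2.62e-05). RNA levels do not show whether ESP and NSP1 were active proteins in these plants. ESM1 (AT3G14210), which counters ESP, was barely called (0.43 ± 0.15, adjusted p = 0.041), and its call ended in most single-library omissions, with the highest p of 0.14 without control replicate 2. PEN2 (AT2G44490), the atypical myrosinase of pathogen defence, was the 1 member that fell (-0.45 ± 0.12, adjusted p = 0.00873, and 0.092 without control replicate 4). Its adjusted p was 0.072 without control replicates 1 and 4.

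Indole glucosinolate genes moved in both directions: 5 of 18 tested were higher, 3 lower, with a median of 0.27. CYP79B2 (AT4G39950), which takes tryptophan into the pathway, had 110, 122, 181 and 130 CPM in infested plants, against 59.8, 65.3, 62.9 and 53.3 CPM in controls (1.17 ± 0.25, adjusted p = 0.000993). CYP81F4 (AT4G37410), which leads to the 1-methoxy form, had 91.3, 130, 156 and 97.1 CPM against 26.1, 26.9, 37.8 and 18.6 CPM (2.11 ± 0.38, adjusted p = 0.000127). IGMT5 (AT1G76790), the methyltransferase of the same step, rose by 1.46 ± 0.48 (adjusted p = 0.0361), CYP83B1 (AT4G31500), the next core enzyme, by 0.56 ± 0.15 (0.00869), and the transferase GSTF9 (AT2G30860) by 0.36 ± 0.13 (0.0493). Enzymes of the 4-methoxy branch, which serves pathogen defence, were among the falls. CYP81F2 (AT5G57220) had 3.90, 3.32, 2.79 and 3.21 CPM against 7.08, 10.4, 10.2 and 24.16 CPM (-1.96 ± 0.36, adjusted p = 0.000125), IGMT2 (AT1G21120) fell by 1.59 on the log2 scale (SE 0.29, adjusted p = 0.000115), and their activator MYB51 (AT1G18570) by 1.46 (SE 0.21, 1.71e-06). CYP79B2, CYP81F4 and CYP81F2 did not overlap between the groups. The count of falls was 3 in every alternative run, whereas the count of rises was 2 without control replicates 2 and 3 and 3 when control replicate 2 or 4, or infested replicate 2, 3 or 4, was left out: IGMT5 ended in those and other settings (highest adjusted p 0.2, without control replicates 1 and 4), GSTF9 in 12 of 16 alternatives run (highest adjusted p 0.33), and CYP83B1 without control replicates 2 and 3 (0.069) or 1 and 4 (0.052). Aliphatic glucosinolate genes, which use methionine, stayed near their controls: 0 of 25 were higher and 1 was lower, FMO GS-OX5 (AT1G12140; -0.27 ± 0.07, adjusted p = 0.00319, and 0.16 without control replicates 2 and 3). Among 8 genes of camalexin, the indole phytoalexin, CYP71A12 (AT2G30750) rose (1.84 ± 0.44, adjusted p = 0.00297, and 0.11 without control replicates 2 and 3) and the regulator WRKY33 (AT2G38470) fell, to 32.0, 21.4, 16.9 and 16.8 CPM, against 129, 105, 99.5 and 208 CPM in controls (-2.63 ± 0.27, adjusted p = 8.81e-09). PAD3 (AT3G26830) and CYP71A13 (AT2G30770), enzymes of its last and early steps, did not pass (0.27 ± 0.74, adjusted p = 0.883, and -0.94 ± 0.91, 0.571). Of 20 flavonoid and anthocyanin genes 1 was higher, near the 6.16% of all genes. It was the flavonol rhamnosyltransferase UGT78D1 (AT1G30530, 0.60 ± 0.13, adjusted p = 0.000695). A fit on the 8 libraries of 7 d alone called 7 higher.

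Several large rises lay outside these pathways. NATA1 (AT2G39030), which acetylates ornithine into a defensive amino acid, had 156, 194, 205 and 129 CPM in infested plants, against 3.81, 4.28, 2.90 and 3.36 CPM in controls (5.57 ± 1.14, adjusted p = 0.000619). RLP40 (AT3G24982), a receptor-like protein of unstated ligand, had 16.2, 20.7, 18.7 and 14.9 CPM against 0.0919, 0.957, 0.644 and 0.353 CPM (5.09 ± 0.48, adjusted p = 9.54e-10). AT1G15125, annotated as a methyltransferase, had 60.8, 50.8, 35.4 and 34.6 CPM against 1.47, 1.26, 1.56 and 2.30 CPM (4.79 ± 0.49, adjusted p = 6.23e-09). These genes were on in every infested and nearly off in every control library. AT3G23550, an efflux transporter of the MATE family, rose by 5.26 ± 0.63 (adjusted p = 1.64e-07), the TRAF-like gene AT3G28220 by 4.13 ± 0.55 (1.14e-06), and the lanosterol synthase LAS1 (AT3G45130) by 3.66 ± 0.59 (2.42e-05). EARLI1 (AT4G12480), a lipid-transfer-like protein, had 30.36, 27.0, 25.7 and 20.3 CPM against 1.195, 2.01, 2.07 and 1.53 CPM (3.92 ± 0.40, adjusted p = 6.86e-09). Its tandem neighbours AT4G12490 and AT4G12500 rose by 4.07 ± 0.54 (adjusted p = 8.42e-07) and 3.00 ± 0.56 (0.000165), while AZI1 (AT4G12470), the neighbour that primes systemic immunity, did not pass (-0.81 ± 0.48, 0.302); 3 of 4 genes of this cluster were higher, and the count was 3 in every alternative run. BGLU18 (AT1G52400), the beta-glucosidase of wound-induced ER bodies, gained the most reads of any called gene, with 4696, 5442, 6515 and 4616 CPM against 816, 840, 640 and 796 CPM (2.78 ± 0.43, adjusted p = 1.24e-05). Behind it in reads gained came TGG2, LOX2, TGG1 and CAB3.

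Of 19 genes of glutathione transfer and redox repair 3 were higher and 2 lower, against 6.16% and 7.59% of all genes, so the count of falls was near the share over all genes. The catalases went opposite ways: CAT3 (AT1G20620) had 2596, 2551, 2137 and 2097 CPM in infested plants, against 1277, 1067, 1019 and 1251 CPM in controls (1.02 ± 0.10, adjusted p = 1.84e-09), whereas CAT2 (AT4G35090), the main catalase of photorespiration, had 1168, 1106, 1028 and 1071 CPM against 1728, 2125, 1955 and 1580 CPM (-0.76 ± 0.10, adjusted p = 4.06e-07). Neither overlapped between groups. The methionine sulfoxide reductases MSRB6 (AT4G04840) and MSRB9 (AT4G21850) rose by 1.61 ± 0.29 (adjusted p = 0.000111) and 1.5 ± 0.41 (0.00998, and 0.1 without control replicates 2 and 3). Copper and iron superoxide dismutases rose slightly, 4 of 9 genes by 0.33 to 0.46: CSD1 (AT1G08830), CSD2 (AT2G28190), FSD2 (AT5G51100) and FSD3 (AT5G23310). None of these 4 was called without control replicates 2 and 3 (adjusted p = 0.12, 0.42, 0.08 and 0.21), and the count was 2 without control replicate 3 or without infested replicate 1. Without control replicates 1 and 4, FSD2 was not called either (0.08).

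Against these rises stood a broad fall of early response genes. In the list of rapid wound and pattern responses, genes that touch, wounding or microbial patterns induce within minutes, 0 of 30 were higher and 20 were lower, against 7.59% of all genes, with a median of -1.29. In 17 of the 30 every infested library lay below every control library, against 7.49% of all genes. The count of falls was 18 without control replicates 2 and 3 and 12 without control replicates 1 and 4, the controls in which these genes were highest. WRKY53 (AT4G23810), a transcription factor of defence and senescence, had 8.74, 6.19, 5.86 and 5.03 CPM in infested plants, against 59.3, 77.4, 76.5 and 108 CPM in controls (-3.63 ± 0.32, adjusted p = 5.35e-10). WRKY40 (AT1G80840), a pattern-induced repressor, had 11.1, 6.02, 6.77 and 2.65 CPM against 81.8, 20.9, 27.4 and 51.2 CPM (-2.78 ± 0.46, adjusted p = 3.33e-05). ERF6 (AT4G17490), a stress-induced ethylene response factor, had 4.43, 2.87, 2.50 and 1.82 CPM against 21.3, 12.8, 12.8 and 30.0 CPM (-2.72 ± 0.39, adjusted p = 2.8e-06). In all 3 genes every infested library lay below every control, and the controls varied widely among themselves. RRTF1 (AT4G34410), a redox-responsive factor, had the largest fitted fall of this list and rested on 1 library, with 1.11, 0.563, 0.455 and 0.663 CPM against 66.0, 1.21, 2.85 and 3.48 CPM (-4.72 ± 1.1, adjusted p = 0.00265); without control replicate 1 its adjusted p was 0.22. The CBF factors of the cold response fell with them: CBF1 (AT4G25490) had 0.291, 0.113, 0.114 and 0 CPM against 13.97, 1.71, 2.07 and 2.95 CPM (-5.28 ± 0.85, adjusted p = 2.03e-05), CBF2 (AT4G25470) fell by 3.37 (SE 0.61, 0.000105) and DREB1A (AT4G25480), the third CBF, by 2.84 (SE 0.57, 0.000356). Control replicate 1 was again the highest, and all 3 genes were also called without it. Their dehydrin target COR47 (AT1G20440) fell by 1.02 (SE 0.13, adjusted p = 1.8e-07). In this list of CBF factors and cold targets 5 of 10 genes were lower, 0 higher and 5 not called, so the fall did not extend to every member. The count of falls was 5 in every alternative run. The hour of harvest, which moves CBF and many wound genes through the day, is not given in the labels, and its part in these falls was not tested.

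In the lists of ABA and of leaf ageing every call was a fall. In the ABA list 0 of 16 were higher and 8 lower, with a median of -1.04 (4 lower without control replicates 2 and 3, 10 without replicates 1 and 4). NCED3 (AT3G14440), the step that limits ABA synthesis under drought, had 14.9, 10.5, 10.0 and 8.35 CPM in infested plants, against 76.0, 52.5, 60.1 and 66.6 CPM in controls (-2.54 ± 0.33, adjusted p = 4.82e-07). CYP707A3 (AT5G45340), which degrades ABA, had 4.31, 3.66, 2.105 and 1.66 CPM against 23.2, 14.8, 18.3 and 31.5 CPM (-2.90 ± 0.33, adjusted p = 5.35e-08). Both genes, of synthesis and of breakdown, were lower in every infested library than in every control. The phosphatases ABI1 (AT4G26080) and HAI1 (AT5G59220), brakes of the ABA signal that ABA itself induces, fell by 1.55 (SE 0.23, adjusted p = 4.83e-06) and 2.35 (SE 0.69, 0.0177); HAI1 ended without control replicates 2 and 3 (0.4) and without control replicate 2 or 3, or infested replicate 1 or 2 (0.081, 0.051, 0.059 and 0.05). The dehydration markers RD22, RAB18 and LTI78 did not pass (adjusted p = 0.83, 0.41 and 0.22). Among 18 senescence and chlorophyll breakdown genes 0 were higher and 6 lower (3 without control replicates 2 and 3). NAP (AT1G69490), a NAC factor that drives leaf senescence, had 16.1, 13.6, 12.23 and 12.8 CPM in infested plants, against 88.5, 135, 126 and 114 CPM in controls (-3.08 ± 0.21, adjusted p = 5.36e-13). RD26 (AT4G27410), a NAC factor of drought and ageing, had 23.2, 20.1, 17.5 and 14.9 CPM against 130, 190, 171 and 98.2 CPM (-2.96 ± 0.36, adjusted p = 1.77e-07). Infested libraries were close to each other and far under all controls for both. SAG21 (AT4G02380) fell by 1.53 (SE 0.29, adjusted p = 0.000213) and NAC6 (AT5G39610), also called ORE1, by 1.42 (SE 0.30, 0.000857, and 0.12 without control replicates 2 and 3).

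The sugar list, of genes induced in starved leaves and of sugar transporters, had 3 of 21 members higher and 6 lower (0 higher and 4 lower without control replicates 2 and 3). Of all genes 6.16% were higher and 7.59% lower. BT2 (AT3G48360), a scaffold protein whose gene sugar represses, had 6.18, 4.78, 3.41 and 2.21 CPM in infested plants, against 46.8, 99.2, 110 and 66.2 CPM in controls (-4.28 ± 0.42, adjusted p = 2.8e-09). TPS11 (AT2G18700), a trehalose phosphate synthase-like protein of the starvation response, had 33.0, 44.6, 40.5 and 37.1 CPM against 77.8, 170, 184 and 155 CPM (-1.92 ± 0.22, adjusted p = 5.42e-08), and its relative TPS9 (AT1G23870) fell by 1.23 (SE 0.15, 1.31e-07). Control replicate 1 was the lowest control in all 3 genes and still lay above every infested library. The beta-amylase BAM5 (AT4G15210) went the other way, with 118, 119, 212 and 159 CPM against 38.9, 47.3, 33.5 and 41.5 CPM (1.92 ± 0.47, adjusted p = 0.00454, and 0.072 without control replicates 2 and 3).

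Genes of SA and pipecolic acid fell or did not pass: 0 of 25 were higher and 13 lower, with a median of -0.99. Part of this count rested on control replicates 2 and 3, in which the list was highest; 5 members were called lower without them and 16 without control replicates 1 and 4. Several regulators were lower in every infested library than in every control. WRKY70 (AT3G56400), a switch between SA and JA responses, had 30.6, 27.9, 25.8 and 33.7 CPM in infested plants, against 105, 131, 109 and 106 CPM in controls (-1.94 ± 0.28, adjusted p = 3.64e-06). SARD1 (AT1G73805), an activator of SA synthesis, had 1.81, 2.25, 1.48 and 2.93 CPM against 9.38, 12.34, 10.3 and 9.02 CPM (-2.27 ± 0.33, adjusted p = 2.7e-06). Neither gene split among the controls. Its partner CBP60G (AT5G26920) fell by 1.19 (SE 0.26, adjusted p = 0.00131), and the SA receptors NPR3 (AT5G45110) and NPR1 (AT1G64280) by 0.89 (SE 0.15, 3.61e-05) and 0.54 (SE 0.09, 5.39e-05). The pipecolic acid enzymes followed the control split: ALD1 (AT2G13810) had 0.0583, 0.113, 0.284 and 0.276 CPM against 0.735, 6.34, 3.63 and 0.236 CPM (-3.86 ± 1.03, adjusted p = 0.00844), and FMO1 (AT1G19250) had 0, 0.281, 0 and 0 CPM against 0.0919, 1.86, 2.07 and 0.236 CPM (-3.81 ± 1.3, adjusted p = 0.0434). UGT76B1 (AT3G11340), a glucosyltransferase of SA, had 0.175, 0.338, 0.171 and 1.66 CPM against 1.66, 14.2, 11.1 and 0.884 CPM (-3.55 ± 0.80, adjusted p = 0.00186). In these 3 genes control replicates 2 and 3 were high and replicates 1 and 4 overlapped the infested libraries or came close to them, and without replicates 2 and 3 the adjusted p were 0.68, 0.88 and 0.62. ALD1 also ended without control replicate 2 alone (0.068), and FMO1 without control replicate 2 or 3 (0.13 and 0.16) or infested replicate 1, 3 or 4 (0.11, 0.12 and 0.11). NIMIN1 (AT1G02450), an NPR1 interactor, fell by 2.15 (SE 0.52, adjusted p = 0.00341, and 0.28 without control replicates 2 and 3). The secreted SA marker PR1 (AT2G14610) had 22.8, 13.9, 13.1 and 10.2 CPM against 13.8, 91.8, 46.0 and 11.7 CPM and did not pass (-1.45 ± 0.78, adjusted p = 0.247). The glucanase BGL2 (AT3G57260), also called PR2, had 32.2, 40.7, 29.8 and 25.9 CPM against 10.2, 26.3, 17.1 and 6.48 CPM (1.09 ± 0.50, adjusted p = 0.16), and EDS16 (AT1G74710), the isochorismate synthase of SA, 13.9, 17.3, 15.5 and 16.4 CPM against 12.41, 12.13, 14.8 and 16.6 CPM (0.18 ± 0.23, 0.695). All 3 overlapped their controls.

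Other large falls were in signalling proteins. PUB19 (AT1G60190), a U-box ubiquitin ligase of the drought response, had 4.31, 3.15, 4.72 and 3.98 CPM in infested plants, against 71.7, 88.8, 83.5 and 88.0 CPM in controls (-4.36 ± 0.63, adjusted p = 4.53e-06). CNI1 (AT5G27420), a RING ubiquitin ligase of the carbon and nitrogen response, had 5.54, 4.00, 3.02 and 2.27 CPM against 21.2, 29.2, 27.4 and 48.9 CPM (-3.10 ± 0.31, adjusted p = 4.02e-09). PP2-B13 (AT1G56240), annotated as a phloem protein, had 0.932, 0.450, 0.455 and 0.166 CPM against 7.22, 9.21, 8.10 and 17.3 CPM (-4.37 ± 0.47, adjusted p = 9.85e-09). In all 3 genes every infested library lay below every control, and control replicate 4 was well above the other controls for CNI1 and PP2-B13. The glycosyltransferase AT1G05675 fell by 4.31 (SE 0.47, adjusted p = 1.24e-08), the wall-associated kinase-like WAKL2 (AT1G16130) by 3.29 (SE 0.36, 9.85e-09), and AT3G02840, an ARM repeat protein, by 3.12 (SE 0.41, 4.06e-07). AT3G28510, a P-loop ATPase, had 0.758, 0.675, 0.455 and 1.16 CPM against 2.85, 10.4, 11.3 and 2.30 CPM (-3.13 ± 0.96, adjusted p = 0.0242), and its call ended without control replicates 2 and 3 (0.5), without either of them alone (0.076 and 0.087) and without infested replicate 1, 2 or 3 (0.06, 0.06 and 0.075). By reads lost the called genes were led by AT2G25510, uncharacterized, and the cell wall protein ECS1 (AT1G31580), whose adjusted p were 0.17 and 0.22 without control replicates 2 and 3. The next were CAT2, the nitrate reductase NIA2 (AT1G37130), with 991, 1191, 1025 and 1110 CPM against 1295, 1780, 1693 and 1860 CPM (-0.62 ± 0.12, adjusted p = 0.000237), and GLDP1 (AT4G33010), a subunit of glycine decarboxylase in photorespiration, with 1873, 2044, 1826 and 1880 CPM against 2428, 3035, 3097 and 2739 CPM (-0.57 ± 0.10, adjusted p = 4.59e-05). NIA2 and GLDP1 were lower in every infested library than in every control.

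Among wall enzymes and auxin genes the estimates lay between -1.21 and 0.98 on the log2 scale. Of 19 expansins and xyloglucan enzymes, which loosen and rebuild the growing wall, 9 were higher and 3 lower. EXPA1 (AT1G69530) had 585, 607, 566 and 594 CPM in infested plants, against 388, 229, 281 and 462 CPM in controls (0.79 ± 0.15, adjusted p = 0.00013, and 0.062 without control replicates 2 and 3). EXPA8 (AT2G40610) had 189, 191, 157 and 162 CPM against 153, 47.4, 54.9 and 142 CPM (0.82 ± 0.23, adjusted p = 0.0117), and its call ended without control replicate 2 or 3 (0.077 and 0.08). The infested level was even, and the controls fell into high (replicates 1 and 4) and low (2 and 3) pairs. XTH17 (AT1G65310) fell by 1.21 (SE 0.20, adjusted p = 2.42e-05) and XTH30 (AT1G32170) by 0.81 (SE 0.15, 0.000116), and the count of falls was 3 in every alternative run. The count of rises was 5 without control replicate 2, 5 without control replicate 3 and 2 without both. In the auxin list 5 of 21 genes were higher and 2 lower, against 6.16% and 7.59% of all genes, so the falls were near that share. SAUR20 (AT5G18020) and SAUR15 (AT4G38850), small auxin-induced growth proteins, rose by 0.98 ± 0.21 (adjusted p = 0.000675) and 0.89 ± 0.20 (0.00155). None of the 5 rises was called without control replicates 2 and 3, when 4 members were lower. SAUR20 and its tandem copies, such as AT5G18030 (0.83 ± 0.19, adjusted p = 0.00241), are alike in sequence, so the split between them is uncertain. IAA29 (AT4G32280) was barely called lower (-0.85 ± 0.29, adjusted p = 0.044), and its call ended in 10 of 16 alternatives run, among them the omission of control replicate 1 or 4 (0.13 and 0.2) or of any infested library (0.068 to 0.095).

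In the cytokinin list 5 of 13 genes were lower and 1 higher (3 lower and 0 higher without control replicates 2 and 3). Of all genes 7.59% were lower and 6.16% higher, so the 1 rise was near that share. RR5 (AT3G48100), a feedback brake that cytokinin induces, had 10.8, 9.29, 9.56 and 10.6 CPM in infested plants, against 21.4, 17.3, 17.0 and 18.4 CPM in controls (-0.88 ± 0.14, adjusted p = 7.88e-06). ARR7 (AT1G19050) and ARR9 (AT3G57040), of the same class, fell by 0.73 (SE 0.16, adjusted p = 0.0014) and 0.41 (SE 0.09, 0.00155). CKX5 (AT1G75450), which degrades cytokinin, rose by 0.88 ± 0.21 (adjusted p = 0.00212, and 0.15 without control replicates 2 and 3). In the gibberellin and brassinosteroid list 1 of 15 was higher, again near the share of all genes, and 4 were lower. GA3OX1 (AT1G15550), the last step to active gibberellin, had 4.08, 3.38, 2.96 and 4.26 CPM against 9.97, 17.1, 16.1 and 8.54 CPM (-1.82 ± 0.23, adjusted p = 2.03e-07), and ATGA2OX1 (AT1G78440), which inactivates it, fell by 1.51 (SE 0.33, 0.00113). The brassinosteroid oxidases BR6OX1 (AT5G38970) and BR6OX2 (AT3G30180) fell by 1.5 (SE 0.36, adjusted p = 0.00266) and 1.13 (SE 0.23, 0.000433), the second only with control replicates 2 and 3 (0.64 without them). Of 11 cuticular wax genes 2 were higher and 3 lower, against 6.16% and 7.59% of all genes. The wax regulator MYB96 (AT5G62470) had 25.3, 17.8, 16.9 and 17.2 CPM against 58.4, 48.7, 52.2 and 76.7 CPM (-1.61 ± 0.15, adjusted p = 7.92e-10), and the alkane-forming CER1 (AT1G02205) fell by 0.68 (SE 0.09, 5.12e-07). The reductase CER4 (AT4G33790) fell by 0.83 (SE 0.19, adjusted p = 0.00186), and the elongase KCS1 (AT1G01120) rose by 0.43 ± 0.11 (0.00671, and 0.07 without control replicate 2). The rises in wax genes were 0 without control replicate 2, and the falls 5 without infested replicate 3.

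Photosynthesis genes gave few calls, and these followed the control split. Of 37 light harvesting and photosystem genes 36 had a positive sign, 2 were called higher and 0 lower, with a median of 0.17. CAB3 (AT1G29910), a light harvesting protein, had 6189, 5996, 5855 and 5900 CPM in infested plants, against 5735, 3476, 3412 and 5138 CPM in controls (0.43 ± 0.11, adjusted p = 0.00582), and PSBQ-2 (AT4G05180), a photosystem II subunit, rose by 0.36 ± 0.13 (0.0457). For CAB3 every infested library lay above every control, far above replicates 2 and 3 and close to replicates 1 and 4; PSBQ-2 overlapped replicates 1 and 4. CAB3 ended without control replicate 2 or 3 (adjusted p = 0.059 and 0.06), and PSBQ-2 without either (0.24 and 0.25) or without infested replicate 1, 2 or 3 (0.13, 0.092 and 0.077). The count of the list was 0 without either or both of these controls, 5 without control replicate 4, 24 without control replicate 1 and 33 without both replicates 1 and 4. CAB3 is one of several near-identical tandem copies, so its count is uncertain against theirs. Carbon fixation genes, the enzymes of the Calvin cycle, gave 0 higher and 0 lower of 17. In the chlorophyll list 7 of 18 were higher and 1 lower (2 higher and 1 lower without control replicates 2 and 3). GPRI1 (AT2G20570), the GLK1 factor that activates chloroplast genes, had 289, 290, 285 and 272 CPM against 228, 195, 198 and 222 CPM (0.43 ± 0.08, adjusted p = 0.00023), and was called in every alternative run. Its partner GLK2 (AT5G44190) rose by 0.39 ± 0.08 (adjusted p = 0.000208, and 0.15 without control replicates 2 and 3), and the protochlorophyllide reductase PORB (AT4G27440) by 0.60 ± 0.14 (0.00199, and 0.22). PORA (AT5G54190), the reductase of dark-grown seedlings, fell by 1.16 (SE 0.30, adjusted p = 0.00516, and 0.057 without control replicates 1 and 4). Of 32 cell division genes 0 were lower and 1 was higher, the ribonucleotide reductase subunit TSO2 (AT3G27060; 0.34 ± 0.10, adjusted p = 0.0139, and 0.052 and 0.053 without control replicate 3 and without infested replicate 3).

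Calls in the heat shock list followed the control split. Of 17 tested genes 8 were lower and 0 higher, with a median of -1.07; without control replicate 2 the count was 3, without control replicate 1 it was 11, and without control replicates 2 and 3 it was 0. HSP17.4 (AT3G46230), a small heat shock protein, had 0.524, 0.675, 0.512 and 3.93 CPM in infested plants, against 4.78, 28.2, 21.3 and 2.06 CPM in controls (-3.31 ± 0.80, adjusted p = 0.00389, and 0.55 without control replicates 2 and 3). HSP17.6II (AT5G12020) had 0.758, 0.394, 0.341 and 3.15 CPM against 1.06, 14.6, 8.28 and 0.412 CPM (-2.38 ± 0.64, adjusted p = 0.00893). Control replicates 2 and 3 and, within its group, infested replicate 4 stood high. Control replicates 1 and 4 lay above infested replicates 1 to 3 for HSP17.4 and overlapped them for HSP17.6II. With control replicates 2 and 3 left out, the estimates of HSP17.6II and of HSP17.6A (AT5G12030; -2.99 ± 0.85, adjusted p = 0.0137) turned to 0.627 and 0.764 and did not pass (0.75 and 0.83); without control replicate 2 alone their adjusted p were 0.14 and 0.13, and that of HSP17.6A was 0.051 to 0.054 without infested replicate 1, 2 or 3. AT1G53540, of the same family, fell by 3.57 (SE 0.89, adjusted p = 0.0045, and 0.55 without control replicates 2 and 3).

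The remaining lists gave few calls, and counts of falls in the ethylene and flowering lists were near the 7.59% of all genes. Of 16 ethylene genes 2 were lower and 0 higher. ACS6 (AT4G11280), a synthesis enzyme that stress induces, had 36.9, 27.2, 20.8 and 19.02 CPM in infested plants, against 109, 55.2, 62.0 and 134 CPM in controls (-1.79 ± 0.28, adjusted p = 1.24e-05). Of 17 flowering genes 2 were lower, AGL20 (AT2G45660; -0.29 ± 0.10, adjusted p = 0.0373) and FLC (AT5G10140; -0.96 ± 0.33, 0.0463). AGL20 ended without control replicate 2 or 3 (0.15 and 0.19) or infested replicate 2, 3 or 4 (0.065, 0.07 and 0.12), and FLC in 9 of 16 alternatives run, among them the omission of control replicate 1 or 4 (0.19 and 0.073) or infested replicate 1, 2 or 3 (0.12, 0.09 and 0.15). Of 18 clock genes 4 were lower by 0.20 to 0.52 on the log2 scale: AT3G12320, CCA1 (AT2G46830), LHY (AT1G01060) and PCL1 (AT3G46640). LHY, a morning factor, was called in every omission of 1 library (-0.32 ± 0.08, adjusted p = 0.00232, and 0.063 without control replicates 2 and 3), and the count was 2 without control replicate 4 or without infested replicate 2, 3 or 4. Without control replicates 1 and 4, CCA1 and AT3G12320 were not called (0.2 and 0.78). Markers of other organs gave 1 call: 0 of 10 floral organ genes, 0 of 10 anther genes and 0 of 2 seed genes passed, and of 2 root genes PYK10 (AT3G09260), a beta-glucosidase of endoplasmic reticulum bodies, rose by 0.67 ± 0.17 (adjusted p = 0.00564, and 0.075 without control replicates 1 and 4). Of the 10 floral organ genes 0 had a positive sign, with a median log2 fold change of -0.50 (-1.37 to -0.20). Without infested replicate 3, 2 of them were called lower. The summed level of the floral organ list was 22.2 to 47.6 CPM in infested and 31.0 to 55.5 CPM in control plants. That of the anther list was 24.14 to 57.8 and 31.2 to 51.7 CPM. That of the 2 tested root genes was 221.5 to 256.6 and 124.8 to 198.5 CPM. Only 2 of 8 root and 2 of 12 seed markers had enough counts to be tested. In all 8 libraries 3 root and 7 seed markers had 0 counts, among them the root hair gene RHD6 and the seed storage gene CRU3. Other untested markers had few counts, such as CASP1 with 11 over the infested and 10 over the control libraries. Of 10 reference genes 1 passed, GAPC2 (AT1G13440), lower by 0.22 (SE 0.06, adjusted p = 0.00476).

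The neighbouring harvests, 4 d and 12 d, have their own infested and control libraries, so the difference between infestation effects could be tested across them. The effect at 7 d was higher than at 4 d for 201 genes (0.903%) and lower for 594 (2.67%), and higher than at 12 d for 268 (1.2%) and lower for 178 (0.8%), by the same edgeR test. The contrast with 4 d rested on control replicates 2 and 3: without them 1 gene was higher and 53 were lower, and without control replicate 2 alone the counts were 61 and 285. The contrast with 12 d ranged from 168 to 375 genes higher and from 90 to 278 lower over omissions of 1 library, lowest without infested replicate 3 of 7 d and highest without control replicate 2 of 12 d. Overlaps are to be read against the calls of each harvest among the 22252 genes tested. At 4 d 1932 were higher and 1710 lower, and at 12 d 1731 and 1847. Of the genes higher at 7 d, 598 were also called higher at 4 d (43.6% of the 7 d calls and 31% of the 4 d calls) and 482 at 12 d (35.2% and 27.8%). Of the genes lower at 7 d, 707 were also lower at 4 d (41.9% and 41.3%) and 654 at 12 d (38.7% and 35.4%). A call at 7 d and at no other of the 6 harvests was made for 211 higher and 204 lower genes.

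**Figure D5:**
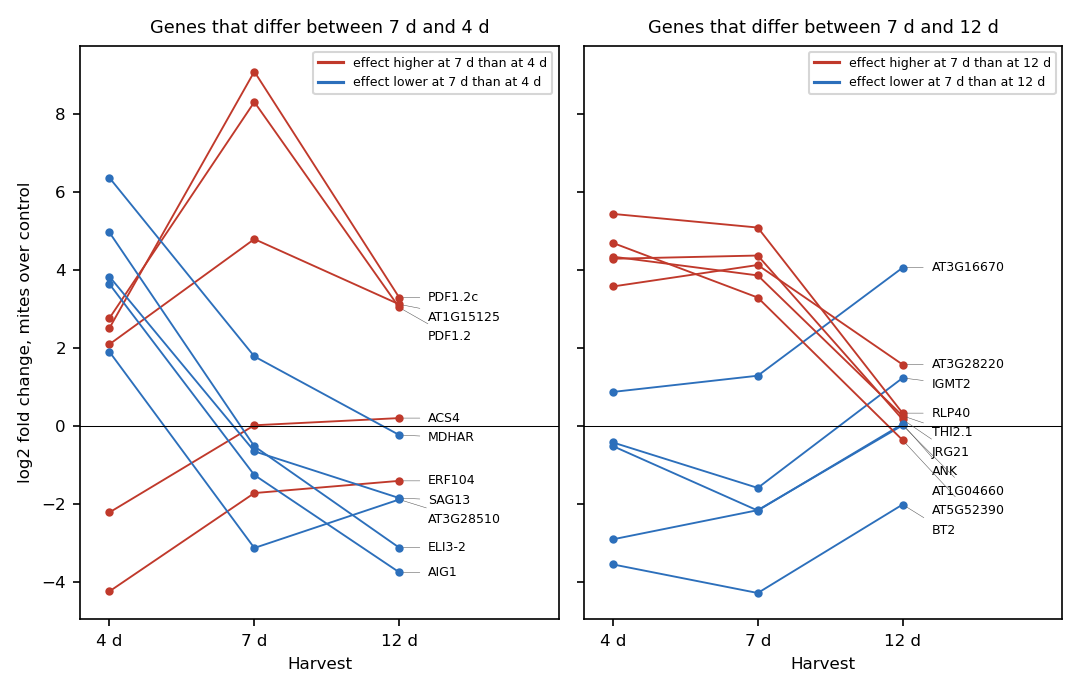
Log2 fold change (mites over control) at 4 d, 7 d and 12 d of the 5 genes with the largest positive (red) and the 5 with the largest negative (blue) difference among called genes with a mean of at least 1 log2 CPM at 7 d, between 7 d and 4 d (left) and between 7 d and 12 d (right). PDF1.2 and PDF1.2c have their highest estimate at 7 d, though the difference from 12 d was not called (adjusted p = 0.21 and 0.356), while RLP40, THI2.1 and JRG21 are high at 4 d and 7 d and near 0 at 12 d.

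Several genes induced at 4 d were not called at 7 d. MDHAR (AT3G09940), which recycles ascorbate, stood at 6.37 at 4 d and 1.78 at 7 d on the log2 scale (difference -4.58 ± 1.08, adjusted p = 0.0117, and 0.094 without control replicate 3 of 7 d); at 7 d it did not pass, with 3.26, 3.94, 7.79 and 2.60 CPM in infested plants, against 0.643, 1.56, 2.39 and 0.353 CPM in controls. Every infested library of MDHAR at 7 d still lay above every control library. SAG13 (AT2G29350), a senescence-linked dehydrogenase, stood at 3.83 at 4 d and -0.65 at 7 d (difference -4.48 ± 0.69, adjusted p = 0.000835), a difference called in every alternative run. At 7 d its infested libraries were even, at 21.3, 21.8, 20.4 and 21.8 CPM, and its controls split into 12.0 and 9.78 CPM (replicates 1 and 4) and 50.4 and 61.1 CPM (2 and 3). The aromatic alcohol dehydrogenase ELI3-2 (AT4G37990) and AIG1 (AT1G33960), a gene that an avirulent bacterium induces, differed by -5.49 ± 1.3 (adjusted p = 0.0128, and 0.071 without control replicate 3 of 7 d) and -4.90 ± 1.11 (0.00954), and neither passed at 7 d itself. With control replicates 2 and 3 of 7 d left out, the adjusted p of MDHAR, ELI3-2 and AIG1 were 0.6, 0.53 and 0.28. Upward differences were led by the defensins (PDF1.2c 6.58 ± 1.49, adjusted p = 0.00916; PDF1.2 5.54 ± 1.33, 0.0134), and these rested on 1 control library of 4 d: control replicate 4 had 27.9 CPM of PDF1.2, against 1.55, 0 and 0 CPM in the other 4 d controls, and without it the adjusted p were 0.84 and 0.66, and those of PDF1.3 and PDF1.2b were 1 and 0.69. The differences of PDF1.3 and PDF1.2b are not given here as sizes, since their 7 d controls had 0 counts and the fitted value depends on the prior count. AT1G15125 had a larger effect at 7 d as well (2.70 ± 0.65, adjusted p = 0.0133, and 0.15 without the same control of 4 d). ERF104 (AT5G61600), a pattern-induced factor, was lower at both harvests and less so at 7 d (-4.24 at 4 d and -1.72 at 7 d; difference 2.52 ± 0.52, adjusted p = 0.00498). ACS4 (AT2G22810), an auxin-induced ethylene synthesis gene, was lower at 4 d (-2.22) and not at 7 d (0.02 ± 0.33; difference 2.23 ± 0.48, adjusted p = 0.00594). Both differences missed the threshold (0.095 and 0.11) without control replicates 2 and 3 of 7 d.

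Several rises of 7 d were not called at 12 d. RLP40 had 16.2 to 20.7 CPM in infested plants at 7 d, against 0.0919 to 0.957 CPM in controls, and at 12 d 5.04, 2.45, 4.02 and 3.46 CPM against 0.618, 5.94, 2.28 and 2.85 CPM (difference 4.76 ± 0.63, adjusted p = 1.98e-05). THI2.1 at 12 d had 41.6, 37.1, 55.8 and 25.2 CPM against 29.6, 30.25, 34.7 and 38.6 CPM (difference 3.60 ± 0.58, adjusted p = 0.000336). At 12 d both genes overlapped their controls, which they did not at 7 d. AT5G52390, of the PAR1 family, had 26.3, 29.5, 24.7 and 20.4 CPM in infested plants at 7 d, against 3.58, 2.72, 1.93 and 1.94 CPM in controls (3.29 ± 0.46, adjusted p = 2.6e-06), and its estimate at 12 d was -0.36 and not called (difference 3.66 ± 0.62, adjusted p = 0.000551). The volatile gene CYP82G1 (difference 5.15, adjusted p = 0.00014) and the terpene synthase TPS10 at AT2G24210 (5.48, 0.0118, and 0.074 without control replicates 2 and 3 of 7 d) were likewise called at 7 d and not at 12 d. JRG21 (4.21 ± 1.14, adjusted p = 0.042) and AT3G28220 (2.55 ± 0.71, 0.0474) passed narrowly, and most omissions of 1 library ended their calls. In the other direction IGMT2, lower at 7 d, had a positive estimate at 12 d (1.23). It had 4.06, 2.15, 1.2 and 1.83 CPM against 0.618, 1.25, 1.02 and 0.997 CPM at 12 d, where the groups overlapped. The difference between the effects at 7 d and 12 d was -2.82 ± 0.43 (adjusted p = 0.000107). AT3G16670, of the Ole e 1 family, had 110, 37.3, 66.6 and 75.6 CPM at 7 d against 46.7, 24.5, 17.5 and 29.6 CPM (1.29 ± 0.24, adjusted p = 0.000181), and at 12 d 10.8, 6.30, 10.5 and 16.8 CPM against 0.523, 0.706, 0.728 and 0.680 CPM (difference -2.77 ± 0.47, adjusted p = 0.000556). Its level was lower in both groups at 12 d than at 7 d, and the fold was larger. The ankyrin protein ANK (AT5G54610) and the glycine-rich AT1G04660 were lower at 7 d and near 0 at 12 d (estimates 0.05 and 0.02), and BT2 was lower at both, more so at 7 d (differences -2.22 ± 0.47, -2.18 ± 0.50 and -2.27 ± 0.63; adjusted p = 0.00634, 0.0116 and 0.0463), ANK not so without control replicates 2 and 3 (0.089), and BT2 not so in 13 of the alternatives run (up to 0.19). NAP was lower at both harvests and deeper at 7 d (difference -1.63, adjusted p = 0.000676), in every alternative run.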

How the data were processed

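RNA of pooled Arabidopsis shoots was sequenced as read pairs, and the authors deposited 1 table of raw counts per gene, with 48 libraries as columns and library totals of 12.5 to 23.4 M (M for mega). Per the submitters' processing notes fastp, HISAT2, featureCounts, DESeq2 and the build TAIR10 were used; their versions, the strand setting and the treatment of multi-mapping reads were not stated there. Reads of near-identical copies, such as tandem genes, and of overlapping antisense genes can therefore be split wrongly. All columns were mapped to samples by name, and 0 were left unused. The 378 features without a locus name (0.125 to 0.162% of the counts at 7 d) were not removed. Those that passed the filter on low counts entered library sizes and tests, and are included among the genes tested. Symbols come from the TAIR10.1 annotation, which matched 32548 loci.

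Counts of all 48 libraries were fitted with edgeR 4.0.16 (R 4.3.3, limma 3.58.1): TMM scaling, the default filter on low counts by group (22252 genes kept), 12 groups, robust quasi-likelihood F-tests and Benjamini-Hochberg adjustment over all genes, with a threshold of 0.05. Fold changes are log2 of mites over control, and the SE is the log2 fold change divided by the square root of F. The effects at 7 d and at 4 d or 12 d were compared as contrasts in the same fit. DESeq2 1.42.0 was an alternative, besides other scaling, no filter, the 8 libraries alone, a replicate block and omission of each library. Adjusted p given for an omission are from the same edgeR test.

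Named genes were the 12 largest rises and the 12 largest falls among called genes whose log2 CPM averaged 1 or more over the 8 libraries, the 5 called genes that gained and the 5 that lost most CPM, up to 4 called members per list, and 5 genes per direction of each contrast between harvests. Members of the SA, JA, camalexin and glucosinolate lists were given whether or not they passed, and other members of small lists (such as TPS04, DXPS1 and HPL1) were chosen after their values were seen; 1 called member of the ethylene list is not reported here. The members and lists were chosen with earlier results of these data known. In simulated counts 200 of 22252 genes were changed. The test of the 7 d comparison found 80% of the genes simulated with a 1.5-fold change and 92% of those with a 2-fold change (100% for 4-fold, 98% for 8-fold). Its 191 calls included 6 unchanged genes. The changed genes were drawn only from those with a 7 d mean of at least 1 CPM. Simulated controls shared 1 mean per gene, without the split seen among the measured controls. The shares found therefore need not hold for the measured comparison. No library pair of 7 d held identical values, and the chi-square per gene between replicates was 3.63 to 41.9, above sampling noise. Replicates are pools called biological replicates, with no source that ties them to separate growth batches, so p-values measure the spread between these pools.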

Additional observations from a re-analysis of the deposited data

Results flagged for a closer look

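In 352 groups of 4 libraries, 1 for each named gene or library total and arm, a library stood apart from the other 3 where its gap to the nearest exceeded Dixon's critical value, which chance gives in about 1 of 20 groups; 29 did. In infested replicate 1 the level that stood apart was 0.816 CPM for DREB1A, 25.3 CPM for MYB96 and 54.1 CPM for ARR9. In infested replicate 2 the level that stood apart was 101 CPM for PEN2 and 0.281 CPM for FMO1. In infested replicate 3 the level that stood apart was 1.65 CPM for CYP94B1 and 1.37 CPM for NAC6. In infested replicate 4 the level that stood apart was 3.93 CPM for HSP17.4, 3.15 CPM for HSP17.6II, 1.44 CPM for HSP17.6A, 103 CPM for AOC1 and 1.66 CPM for UGT76B1. In control replicate 1 the level that stood apart was 14 CPM for CBF1, 104 CPM for JAZ1, 12.23 CPM for CYP94C1, 44 CPM for JAZ10, 136 CPM for OPR3, 3.03 CPM for HCHIB, 1.33 CPM for ERF1, 0.0919 CPM for TPS03 and 66 CPM for RRTF1. In control replicate 2 the level that stood apart was 163 CPM for LHY, 112 CPM for CORI3 and 131 CPM for WRKY70. In control replicate 3 the level that stood apart was 28 CPM for MBP1. In control replicate 4 the level that stood apart was 14.4 CPM for WAKL2, 24.39 CPM for MYB51, 8.13 CPM for IGMT2 and 1.65 CPM for TPS04.

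The infestation effect was higher at 7 d than at 4 d, by the test of the difference itself, on the log2 scale by 8.77 for PDF1.3, 7.65 for PDF1.2b, 6.58 for PDF1.2c, 5.54 for PDF1.2, 2.7 for AT1G15125, 2.52 for ERF104, 2.23 for ACS4, 1.41 for ACS6, 1.16 for CER4, 0.914 for EXPA1 and 0.395 for GLK2. The infestation effect was lower at 7 d than at 4 d, by the test of the difference itself, with differences on the log2 scale of -5.49 for ELI3-2, -5.03 for AT3G28510, -4.9 for AIG1, -4.76 for UGT76B1, -4.58 for MDHAR, -4.48 for SAG13, -3.73 for CYP94B1, -3.71 for KTI1, -3.18 for JAZ10, -2.87 for CYP94C1, -2.52 for BGL2, -2.44 for TI1, -1.65 for RD26, -1.65 for ANK, -1.1 for ABI1, -0.869 for TPS9, -0.748 for CSD1, -0.72 for COR47, -0.67 for MVP1, -0.615 for AGL20 and -0.589 for CSD2. The infestation effect was higher at 7 d than at 12 d, by the test of the difference itself, on the log2 scale by 5.54 for DXPS1, 5.48 for TPS10 at AT2G24210, 5.15 for CYP82G1, 4.76 for RLP40, 4.21 for JRG21, 4.12 for PDF1.4, 3.93 for AT3G11180, 3.66 for AT5G52390, 3.6 for THI2.1, 2.55 for AT3G28220, 2.08 for BGLU18, 0.706 for MVP1, 0.614 for ESP and 0.519 for CAT3. The infestation effect was lower at 7 d than at 12 d, by the test of the difference itself, with differences on the log2 scale of -2.82 for IGMT2, -2.77 for AT3G16670, -2.27 for BT2, -2.22 for ANK, -2.18 for AT1G04660, -2.14 for PORA, -1.63 for NAP, -1.37 for TPS11, -1.23 for XTH17, -0.895 for TPS9, -0.86 for ESM1 and -0.49 for NPR1. Of the differences from 4 d many rest on control replicates 2 and 3 of 7 d. Those of PDF1.3, PDF1.2b, PDF1.2c and PDF1.2 rest on control replicate 4 of 4 d; without it the adjusted p were 1, 0.69, 0.84 and 0.66. The values for PDF1.3 and PDF1.2b depend on the prior count, since both had 0 counts in all 7 d controls, and do not measure size. At least 12 of the 23 alternatives run ended the calls of AT3G28510, ANK, ABI1, MVP1, BGL2, RD26 and CSD2 against 4 d and of BGLU18, JRG21, AT3G28220, MVP1, ESP, CAT3, BT2 and NPR1 against 12 d.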

How the results depend on the processing

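Many counts at 7 d changed when control replicates 2 and 3 were left out. Their omission also leaves 2 controls, with which a gene can miss the threshold at an estimate of similar size. Without both, 374 genes were higher and 809 lower (170 higher at least 2-fold), and the contrast with 4 d had 1 gene higher and 53 lower; without control replicates 1 and 4 that contrast had 1021 and 1331, and 385 genes were lower against 12 d. Over omissions of 1 library the counts at 7 d were 808 to 1858 higher and 1189 to 2018 lower (239 to 341 and 453 to 555 at least 2-fold), against 4 d 61 to 513 and 285 to 972, and against 12 d 168 to 375 and 90 to 278. DESeq2 gave 1485 higher and 1833 lower at 7 d (863 adjusted p missing) and 415 and 302 against 12 d. The 8 libraries alone gave 738 and 1241, library totals 955 and 2138, RLE size factors 1350 and 1704, and no filter 1105 and 1587. HSP17.6II and HSP17.6A turned to 0.627 and 0.764 without control replicates 2 and 3; the cause was not tested. Among the genes named, calls at 7 d ended for 57 without control replicates 2 and 3, 23 in the 8 libraries alone, 20 without control replicate 2 and 16 without control replicates 1 and 4. Same-numbered libraries of 7 d had correlated deviations in 3 pairs (r = 0.252, 0.142 and 0.143) and not in the other (-0.00657), infested replicate 4 correlated best with control replicate 3 (0.147), and no label ties the numbers, so the pairing was not used. A replicate block gave 1620 higher and 1828 lower and ended the 7 d calls of AOS (adjusted p = 0.062), TPS04 (0.07), DXPS1 (0.11), FLC (0.09), IAA29 (0.08), AT3G28510 (0.087), HSP17.6II (0.18) and HSP17.6A (0.16) and, against 4 d, of PDF1.2 (0.14) and others. Depth limited genes near 0 counts, whose fold changes depend on the prior count.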
